A study of Mus musculus with 2 samples.

Results

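The lipid handling genes are 10 genes that macrophages use to take up, carry, store and export lipid. They were measured in single cells of mouse tumours with and without motolimod. The genes were picked by symbol, 10 of the 32285 genes in the count tables, and all 10 were found once each. They were picked with results of these same libraries in view: Gpnmb, Cd36 and Abca1 were already known to be among the highest motolimod over control ratios of the macrophage class, and Fabp5 to lead a macrophage cluster. The levels and ratios below are therefore a description, with no test.

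The study compared a control group with a group given motolimod, a synthetic TLR8 agonist (TLR8 senses RNA in endosomes). Tumours of 5 mice per group were digested, immune cells were selected by their CD45 with magnetic beads, and droplet 3′ libraries were made. There was 1 library per group, so no difference has been checked in replicates, and the intervals cover only the error of counting. The labels do not say if mice were pooled, and they state neither the tumour model, mouse strain or age nor the dose or time.

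Macrophages take up fatty acids and modified lipoproteins through scavenger receptors and use lipoprotein lipase to release fatty acids from triglyceride-rich particles. Inside the cell, fatty acid binding proteins carry the lipid, perilipins coat the droplets that store it, and ABC transporters hand surplus cholesterol to apolipoproteins for export. Oxysterols switch on the export genes through the nuclear receptor LXR, fatty acids act on PPAR receptors, and a low sterol level switches on the sterol synthesis enzymes. In tumours and in fatty tissue, macrophages that load lipid are often recognised by Trem2, Spp1, Lgals3 and Gpnmb.

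The control library held 8099 barcodes and 127609378 UMIs (unique molecular identifiers, each 1 captured RNA molecule), and the motolimod library 10037 barcodes and 62057685 UMIs. Barcodes with fewer than 300 genes, fewer than 800 UMIs or more than 10% of UMIs from mitochondrial genes were dropped, which kept 7484 and 9314, and 113 barcode sequences occurred in both libraries. Cells were assigned by marker genes that exclude the 10 genes studied here. This gave 4464 control and 4292 motolimod cells of the monocyte and macrophage class, with median depths of 14369 and 6239 UMIs. The class was divided into 9 populations named by their markers. The Cbr2 Tppp3 macrophages numbered 107 in the control and 1278 in the motolimod library, the Lyve1 Cd209 macrophages 305 and 122, the Cd72 Vcam1 macrophages 684 and 235, and the Ass1 MHC class II macrophages 895 and 589. Mmp12 macrophages numbered 731 and 543, the Lgals3 Hmox1 macrophages 404 and 510, and cycling macrophages 741 and 277. Cells with markers of both monocytes and macrophages numbered 261 and 422, and classical monocyte-like cells with Ly6c2, Ccr2 and Chil3 numbered 336 and 316. With cycling macrophages left out, 25.2% of cells lay near a boundary between gates, so the populations are ranges along a continuum. Each name gives the marker set whose log2 score lay furthest above the class mean, in standard deviations. Cycling macrophages were instead set apart by their cycling score. Cells led by the monocyte set with a macrophage score of at least 40 were called monocyte-macrophage. The names are gate names and not cell types: apart from the C1q genes, the top 10 genes of the Ass1 MHC class II population held 2 markers of the Cd72 Vcam1 set (Cd81, Cd72) and 1 of its own (H2-Eb1), while its own set summed to 41063 and 35396 CPM. The Cbr2 Tppp3 set summed to 3895 and 4386 CPM in its own gate, and to 4348 and 5437 CPM in the Lyve1 Cd209 gate. In the Cbr2 Tppp3 gate the Cd72 Vcam1 set summed to 12793 and 6826 CPM. In clusters built without any lipid gene, numbered 0 to 20, the libraries placed some gates differently. Most Cbr2 Tppp3 cells of the motolimod library lay in cluster 6 (53.1%), where the largest control share lay in cluster 11 (33.6%). The largest shares of Mmp12 cells lay in cluster 12 (45.6% of control) and cluster 5 (29.8% of motolimod cells), of Lgals3 Hmox1 cells in cluster 12 (34.4%) and cluster 5 (44.9%), and of monocyte-macrophage cells in cluster 0 (33.3%) and cluster 6 (33.4%). In the other 5 populations the same cluster held the largest share in both libraries. Macrophage markers (C1qa, C1qb, C1qc, Csf1r and 6 others) summed to 7746 to 20962 CPM (UMIs per 1000000 UMIs of the population) in the 7 macrophage populations and to 247 and 308 in T cells.

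Lipid genes are also used by fat and vessel cells, so the markers of those cells were read in the same sums. The 5 adipocyte markers, Adipoq among them, summed to at most 0.943 CPM in any of the 9 populations of either library, and the 6 endothelial markers to between 4.98 and 46.5. Epithelial markers summed to at most 18.8 and neutrophil markers to between 66.7 and 291. Cells with high endothelial, epithelial or neutrophil scores had been left out of the 9 populations, so low sums of these sets follow from the gates. The adipocyte markers were not used in the gates. Levels in T cells are given beside the low values as a reference. They hold free RNA and any RNA that T cells make themselves, and these were not separated. T cells (median 5926 and 5027 UMIs) were shallower than most of the 9 populations, so levels in CPM do not compare free RNA per cell.

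The promoters of the 3 genes with the largest class-wide ratios, Cd36, Abca1 and Gpnmb, are shown because these genes were higher together. RefSeq entries existed for 6 of the 10 genes (Cd36, Abca1, Gpnmb, Plin2, Apoe and Apoc2). Each run holds the 250 bases before the RefSeq start on GRCm38.p6, the build of the count tables, read 5′ to 3′ on the gene's strand. Capitals mark a nuclear receptor half-site (AGGTCA on either strand) or an E-box (CACGTG), and no matches overlap.
Cd36, chr5:17835897-17836146, minus strand: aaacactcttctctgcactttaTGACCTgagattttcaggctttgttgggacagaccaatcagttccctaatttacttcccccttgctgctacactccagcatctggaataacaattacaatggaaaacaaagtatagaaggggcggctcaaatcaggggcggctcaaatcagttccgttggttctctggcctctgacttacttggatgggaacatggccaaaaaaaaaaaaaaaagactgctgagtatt
Abca1, chr4:53159896-53160145, minus strand: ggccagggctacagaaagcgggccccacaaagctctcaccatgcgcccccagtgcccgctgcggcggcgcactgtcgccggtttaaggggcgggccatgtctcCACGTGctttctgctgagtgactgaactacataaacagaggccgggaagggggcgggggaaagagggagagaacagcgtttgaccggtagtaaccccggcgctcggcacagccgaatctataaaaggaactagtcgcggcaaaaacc
Gpnmb, chr6:49036268-49036517, plus strand: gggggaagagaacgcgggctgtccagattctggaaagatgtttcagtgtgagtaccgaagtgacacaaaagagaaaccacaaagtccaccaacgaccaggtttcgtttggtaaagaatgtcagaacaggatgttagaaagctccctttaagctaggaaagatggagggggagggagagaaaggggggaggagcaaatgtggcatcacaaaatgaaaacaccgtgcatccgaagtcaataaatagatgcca

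The Cd36 window held 1 half-site, with its first base 228 bases before the start. It lies in an intron of the gene, since longer annotated Cd36 transcripts start upstream. The Abca1 window held 1 E-box, with its first base 147 bases before the start, and the Gpnmb window held neither motif. Of 32851 promoter windows of the same length, 14% held the half-site and 6.02% the E-box. An exact form of the direct repeat that LXR binds, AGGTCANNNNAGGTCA on either strand, was in 0.0152% of windows and in none of the 8 windows of these genes. The exact form of the PPAR repeat, AGGTCANAGGTCA, was in 0.0335% and likewise in none of the 8. Imperfect repeats were not searched, so these counts do not say whether the windows hold an LXR or PPAR element. A match describes the letters and not a bound site, and no match says only that these letters are not in this window.

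Over the whole class, 5 of the 10 genes were at least 1.5-fold higher in the motolimod library, with at least 10 CPM in 1 library, and 1 was at least 1.5-fold lower. Of all 7588 genes at that level, 8.75% were higher and 5.23% lower by the same rule. The 5 higher genes were Cd36, Gpnmb, Abca1, Apoc2 and Abcg1, and the lower gene was Fabp4. The median log2 ratio was 0.63 for the 10 genes and 0.04 for all genes. Since the genes were chosen with these ratios known, the gap is not evidence of its own.

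**Figure D1:**
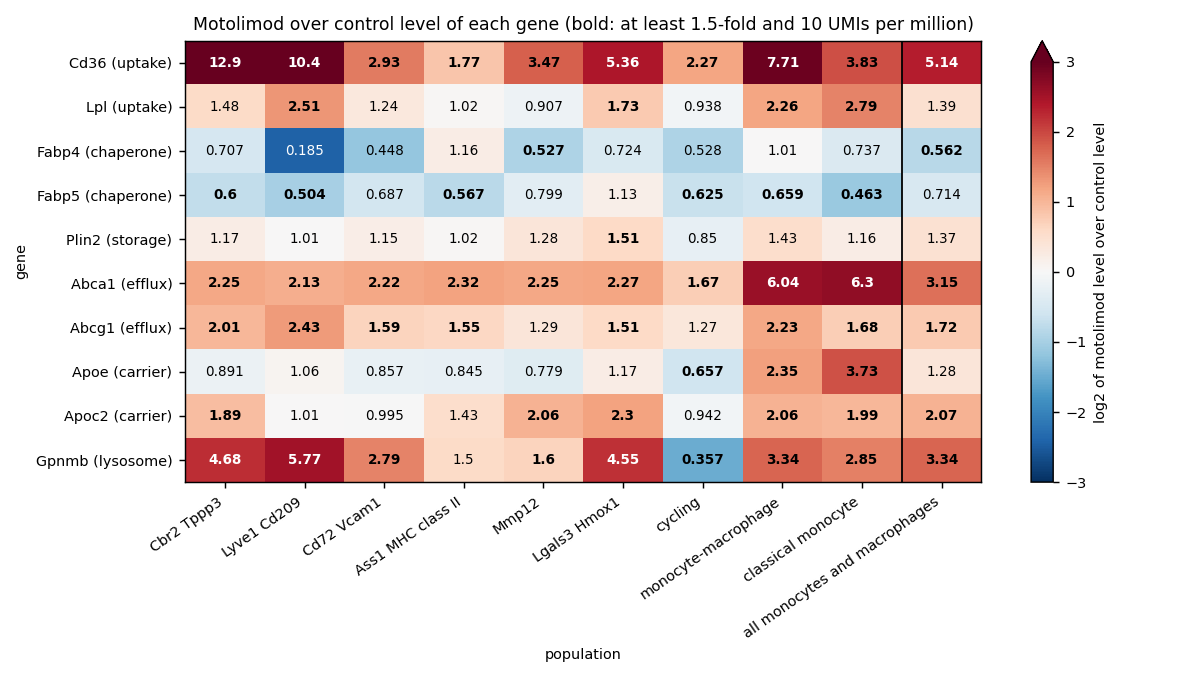
Motolimod level divided by control level for each gene (rows) in the 9 populations and in the whole class (last column). Color is on a log2 scale, numbers are the ratios, and bold marks a difference of at least 1.5-fold with at least 10 CPM in 1 library. Cd36 and Abca1 are bold and above 1 in all 9 populations, and Fabp5 is bold and below 1 in 6.

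The counts by population were as follows, each with the share of all genes that passed the same rule. In Cbr2 Tppp3 macrophages 5 of the 10 genes were higher (background 14.5%) and 1 lower (13.4%). Lyve1 Cd209 macrophages also had 5 higher (18.1%) and 1 lower (14.4%). Cd72 Vcam1 macrophages had 4 higher (7.58%) and 0 lower (3.99%). Ass1 MHC class II macrophages had 3 higher (5.62%) and 1 lower (2.12%), and Mmp12 macrophages 4 higher (9%) and 1 lower (4.86%). Lgals3 Hmox1 macrophages had 7 higher (16.9%) and 0 lower (9.69%). Cycling macrophages had 2 higher (5.50%) and 3 lower (2.54%). The monocyte-macrophage cells had 7 higher (14.7%) and 1 lower (14.8%), and classical monocytes 7 higher (12.3%) and 1 lower (9.36%). Together 44 of 90 gene and population pairs were higher and 9 lower. When the cells were instead grouped by the clusters, each taking the gate that held most of its cells, 6 of the 9 populations kept a cluster. In these 6 populations 30 of 60 pairs were higher by gates and 23 by clusters. The gate that named a cluster held between 25.3% and 60.2% of its cells, so the values by cluster are values of mixed cells. Cycling macrophages were the population with more lower than higher members. Among cells of 3000 to 10000 UMIs (42 control and 26 motolimod cells), none of its 3 lower calls (Fabp5, Apoe and Gpnmb) held.

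Uptake was described by Cd36 and Lpl. Cd36 encodes the fatty acid translocase, a scavenger receptor for fatty acids and oxidised lipoprotein (chromosome 5, 17781690 to 17888801). Its class-wide level was 19.7 CPM in the control (95% Poisson interval 18.7 to 20.8) and 101 CPM in the motolimod library (97.9 to 105), a ratio of 5.14 (4.82 to 5.47). In Cbr2 Tppp3 macrophages it was 15.2 CPM in the control and 195 CPM with motolimod, 12.9-fold higher (7.34 to 25), although the control value rests on 12 UMIs. Beside it, the Ass1 MHC class II markers in this gate summed to 11255 CPM in the control and 2417 CPM with motolimod. The largest share of cells lay in cluster 11 in the control (33.6%) and in cluster 6 with motolimod (53.1%). Cluster 11 also held 28.9% of the motolimod cells. The part of these differences in the ratio was not tested. In Lyve1 Cd209 macrophages it was 23.4 and 243 CPM, 10.4-fold higher (7.63 to 14.3). In the control these populations ranked 5 and 3 of 9 by Cd36 level, and with motolimod 3 and 2.

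The Cd36 level of Lgals3 Hmox1 macrophages was 51 CPM in the control, above the other populations, and 273 CPM with motolimod, a ratio of 5.36 (4.67 to 6.17). With motolimod its interval overlapped that of Lyve1 Cd209 macrophages, so the order of the top pair is not resolved. Mmp12 macrophages had 32 and 111 CPM (3.47-fold), and monocyte-macrophage cells 10.1 and 77.9 CPM (7.71-fold). Classical monocytes had 14 and 53.5 CPM (3.83-fold) and Cd72 Vcam1 macrophages 13.4 and 39.3 CPM (2.93-fold). The smallest ratios were in cycling macrophages, with 11.5 and 26.2 CPM (2.27-fold), and in Ass1 MHC class II macrophages, with 15.5 and 27.5 CPM (1.77-fold, 1.46 to 2.15). In the control, the 6 lowest populations lay between 10.1 and 15.5 CPM with overlapping neighbours. T cells held 1.73 CPM of Cd36 in the control and 9.25 CPM in the motolimod library (6 and 26 UMIs). The T cell level was thus also higher with motolimod, and below every macrophage value of that library. By clusters built without lipid genes, Cd36 was higher in 5 of 6 populations, the exception being Ass1 MHC class II macrophages at 1.41. The Cbr2 Tppp3 value by clusters was 6.25.

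The share of cells with a Cd36 UMI was also higher with motolimod. With each cell thinned to 1000 UMIs, 1.6% of control cells of the class (71 of 4428, exact binomial interval 1.25 to 2.02) and 12.5% of motolimod cells (522 of 4186, 11.5 to 13.5) had one. Before thinning the shares were 13.7% and 32.4%. Thinning left out 36 control and 106 motolimod cells with fewer UMIs. In Lyve1 Cd209 macrophages the thinned share was 1.7% in the control and 26.1% with motolimod, and in Lgals3 Hmox1 macrophages 3% and 22.1%. T cells, with median depths of 5926 and 5027 UMIs, had 0 of 357 in the control, which allows up to 0.84% of cells with a UMI at that thinned depth, and 0.698% with motolimod. Unthinned, 0.276% and 3.69% of T cells had one.

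Lpl encodes lipoprotein lipase, the secreted enzyme that frees fatty acids from triglyceride (chromosome 8, 68880491 to 68907448). Its class-wide level was 159 CPM in the control and 221 CPM with motolimod, a ratio of 1.39 (1.35 to 1.43). Among cells of 3000 to 10000 UMIs, an alternative chosen after seeing the data, it was 2.77, and Lpl was then higher in 6 populations. It was higher in 4 populations. Classical monocytes had 47.4 and 132 CPM (2.79-fold, 2.22 to 3.52), Lyve1 Cd209 macrophages 93 and 234 CPM (2.51-fold), monocyte-macrophage cells 110 and 249 CPM (2.26-fold) and Lgals3 Hmox1 macrophages 199 and 345 CPM (1.73-fold). These include the 3 populations that held the least Lpl in the control. Cbr2 Tppp3 macrophages had the highest value in both libraries, 250 and 369 CPM, with an interval that overlapped the next population in each. The ratios were near 1 in Ass1 MHC class II (127 and 130 CPM, 1.02), Mmp12 (132 and 120 CPM, 0.907) and cycling macrophages (174 and 164 CPM, 0.938). T cells held 11 and 20.6 CPM and neutrophils 72.1 and 11.9 CPM, in the control above classical monocytes.

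**Figure D2:**
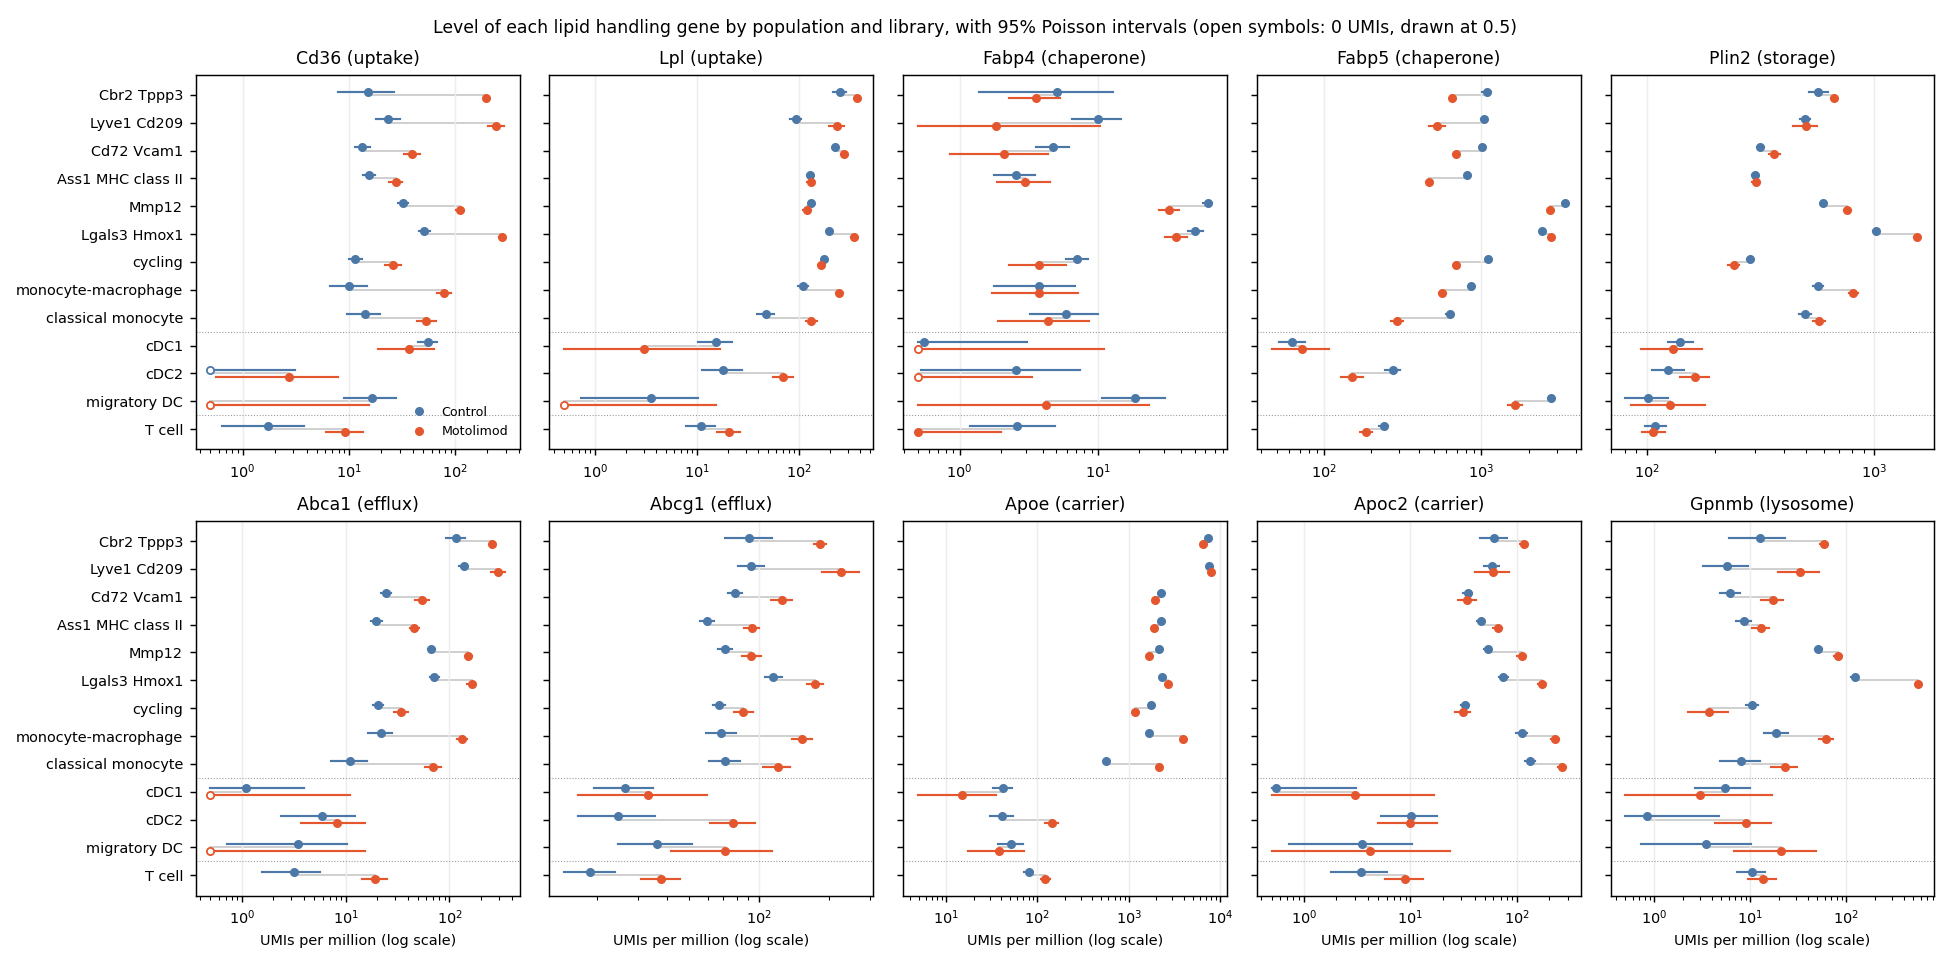
Level of each gene in CPM (log scale) in the 9 monocyte and macrophage populations, 3 dendritic cell populations and T cells, for the control (blue) and motolimod library (red). Points are sums over cells, lines are 95% Poisson intervals, and an open symbol stands for 0 UMIs. Cd36 and Abca1 have the red point to the right in every macrophage and monocyte row, and Fabp4 stands out in the Mmp12 and Lgals3 Hmox1 rows.

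Of the fatty acid chaperones, Fabp4 was the 1 gene lower over the class, and Fabp5 was lower in 6 of 9 populations. Fabp5 (chromosome 3, 10012548 to 10016607), an intracellular carrier of fatty acids, had a class-wide level of 1489 CPM in the control and 1063 CPM with motolimod, a ratio of 0.714 (0.705 to 0.722). The highest levels were in Mmp12 macrophages, with 3412 CPM in the control and 2727 CPM with motolimod (0.799), and in Lgals3 Hmox1 macrophages, with 2444 and 2761 CPM (1.13). The other 7 populations lay between 630 and 1108 CPM in the control and between 292 and 693 CPM with motolimod, and in each of the 7 the intervals of the libraries did not overlap. Fabp5 was lower by the rule in 6 of them, most in classical monocytes, with 630 and 292 CPM (0.463, 0.418 to 0.511), and in Lyve1 Cd209 macrophages, with 1033 and 521 CPM (0.504). Cd72 Vcam1 macrophages had 1003 and 689 CPM (0.687). The T cell level of Fabp5 was 240 and 186 CPM, below the 630 and 292 CPM of classical monocytes. Neutrophils held 751 CPM in the control, above classical monocytes, and 220 CPM with motolimod (0.293).

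The Fabp5 calls depended on how cells were weighted and grouped. Among cells of 3000 to 10000 UMIs the ratio in cycling macrophages was 1.11, from 42 control and 26 motolimod cells. By clusters built without lipid genes the ratio in Cbr2 Tppp3 macrophages was 1.47. With each cell thinned to 1000 UMIs, which weights cells equally, Fabp5 was lower in 2 populations.

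Fabp4, the fatty acid binding protein best known from fat cells and also made by macrophages and capillary endothelium (chromosome 3, 10204088 to 10208576), lies 187480 bases from Fabp5. It reached 10 CPM in 2 of the 9 populations. In Mmp12 macrophages it was 62.5 CPM in the control and 32.9 CPM with motolimod (0.527, 0.44 to 0.629), and in Lgals3 Hmox1 macrophages 50.8 and 36.8 CPM (0.724, 0.578 to 0.902). The other 7 populations held between 1.84 and 9.95 CPM, and T cells 2.6 and 0.356 CPM. Class-wide, Fabp4 was 18.3 CPM in the control and 10.3 CPM with motolimod (0.562, 0.499 to 0.633). Fabp4 and Fabp5 were therefore both highest in the same pair of macrophage populations. None of the 6 other fatty acid binding protein genes, such as Fabp3, reached 10 CPM in the class.

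A small number of vessel cells held much of the Fabp4. Cells with at least 3 endothelial markers and no macrophage, neutrophil, T or epithelial signature, led by Igfbp7, Sparc and Igfbp3, numbered 10 in the control and 4 in the motolimod library. These endothelial-like cells passed the CD45 enrichment and held 1033 of the 2574 Fabp4 UMIs of the control library (40.1%) and 127 of 560 of the motolimod library (22.7%). Their Fabp4 level was 3111 CPM (2924 to 3306) and 1524 CPM (1270 to 1813). They also held Cd36, at 169 and 252 CPM, and no Apoc2 or Gpnmb UMI. The macrophage class held 48.6% and 64.1% of Fabp4 UMIs. Endothelial markers in the Mmp12 macrophages summed to 22.8 and 28.4 CPM, and to 5222 and 5675 CPM in the endothelial-like cells. The gates used these markers, so this gap was set by them.

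**Figure D3:**
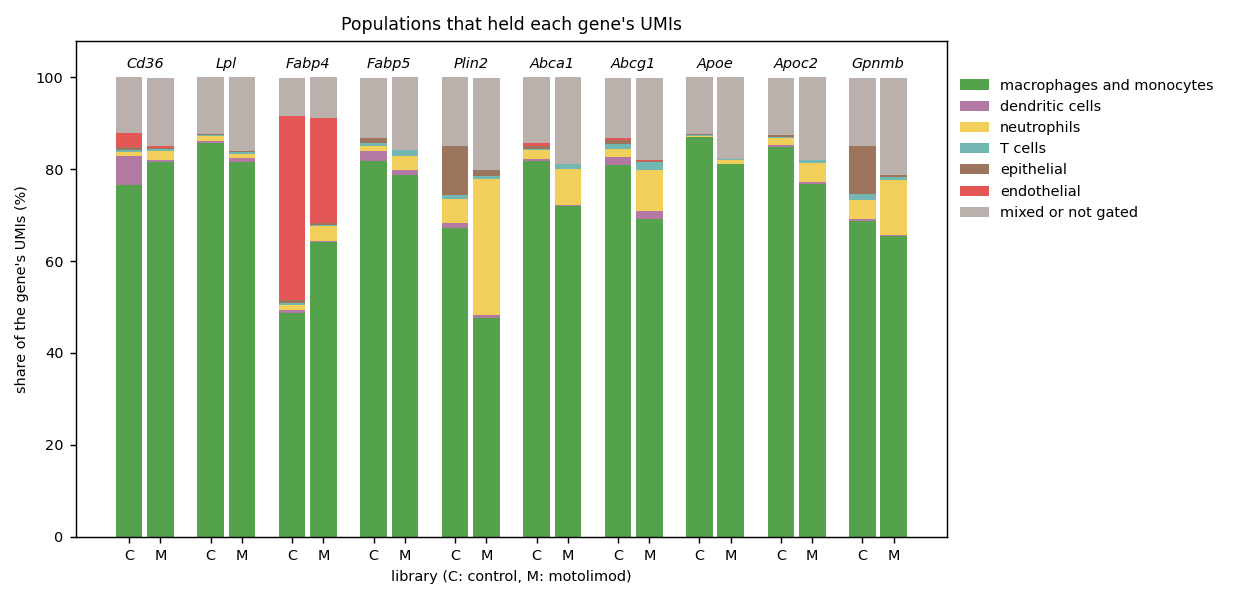
Share of each gene's UMIs (percent of all barcodes past the filter) held by each cell group, in the control (C) and motolimod (M) library. Endothelial-like cells hold 40.1% of control Fabp4 UMIs and 22.7% of motolimod Fabp4 UMIs, and neutrophils hold 5.4% and 29.6% of Plin2 UMIs.

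Storage was described by Plin2, which encodes the perilipin that coats lipid droplets in most cell types (chromosome 4, 86648386 to 86670060). Lgals3 Hmox1 macrophages had the most among macrophages, 1015 CPM in the control (988 to 1042) and 1536 CPM with motolimod (1493 to 1580), a ratio of 1.51 (1.46 to 1.57). This was the 1 population in which Plin2 passed the rule, and the call did not hold. It was lost with a stricter barcode filter, another scaling, a 2-fold rule, clusters, cells of 3000 to 10000 UMIs and cells near a gate boundary left out, and with cells weighted equally Mmp12 macrophages passed in its place. The monocyte-macrophage cells had 566 and 809 CPM (1.43) and Mmp12 macrophages 596 and 761 CPM (1.28). The remaining populations had ratios between 0.85, in cycling macrophages, and 1.17, in Cbr2 Tppp3 macrophages. Neutrophils held Plin2 at 1296 and 1966 CPM (1.52, 1.45 to 1.59), above the Lgals3 Hmox1 macrophages of the same library, and T cells at 109 and 107 CPM. As neutrophils numbered 496 in the control and 2611 in the motolimod library, their share of Plin2 UMIs was 5.4% and 29.6%.

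Efflux was described by the transporters Abca1 and Abcg1. Abca1 moves cholesterol and phospholipid onto lipid-poor apolipoproteins and is a textbook LXR target (chromosome 4, 53030787 to 53159895). Its class-wide level was 38.1 CPM in the control (36.6 to 39.5) and 120 CPM with motolimod (116 to 124), a ratio of 3.15 (3 to 3.31). In Lyve1 Cd209 macrophages it was 137 and 293 CPM (2.13) and in Cbr2 Tppp3 macrophages 115 and 259 CPM (2.25). These were the highest populations in both libraries, with intervals that overlapped each other. Mmp12 macrophages had 67 and 151 CPM (2.25) and Lgals3 Hmox1 macrophages 71.4 and 163 CPM (2.27). Cd72 Vcam1 macrophages had 24.5 and 54.4 CPM (2.22) and Ass1 MHC class II macrophages 19.8 and 46 CPM (2.32). In 6 macrophage populations the ratio thus lay between 2.13 and 2.32, while their control levels ranged from 19.8 to 137 CPM.

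The monocyte populations had larger Abca1 ratios from lower control levels. Classical monocytes had 11 CPM in the control and 69.3 CPM with motolimod (6.3, 4.11 to 10), and monocyte-macrophage cells 21.7 and 131 CPM (6.04, 4.55 to 8.14). Cycling macrophages had the lowest ratio, 1.67 (1.38 to 2.01), from 20.4 and 34.1 CPM. Thinned to 1000 UMIs, 0 of 332 control classical monocytes had an Abca1 UMI, which allows up to 0.904% of cells with a UMI at that thinned depth, and 7.59% of motolimod monocytes had one. T cells had 1.4% and 1.16%, so the control share was at or below the T cell share. The unthinned shares were 5.36% and 27.8% in classical monocytes and 2.49% and 6.45% in T cells. T cells held 3.17 CPM of Abca1 in the control and 19.2 CPM with motolimod, and neutrophils 31.7 and 70.1 CPM (2.21). Abca1 was higher in 9 of 9 populations by gates and in 6 of 6 by clusters, and in 8 of 9 after thinning, with cycling macrophages as the exception. Among cells of 3000 to 10000 UMIs it was also higher in 8, there with Cbr2 Tppp3 macrophages as the exception.

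Abcg1 passes cholesterol to formed lipoprotein particles (chromosome 17, 31057675 to 31117988). Its class-wide level was 73.6 CPM in the control and 126 CPM with motolimod, a ratio of 1.72 (1.65 to 1.79). The 9 populations lay close together in the control, between 59.7 and 115 CPM, and spread from 85.4 to 225 CPM with motolimod. Lyve1 Cd209 macrophages had 92.6 and 225 CPM (2.43, 1.93 to 3.03), monocyte-macrophage cells 68.5 and 153 CPM (2.23) and Cbr2 Tppp3 macrophages 90.9 and 183 CPM (2.01). It was higher in 7 populations, with Mmp12 (1.29) and cycling macrophages (1.27) as the exceptions, in 3 after thinning and in 2 of 6 by clusters. The T cell level was 18.7 and 37.7 CPM.

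Apoe and Apoc2 encode carrier proteins of lipoprotein particles and lie 18167 bases apart on chromosome 7. Apoe, a cholesterol acceptor that macrophages secrete (19696109 to 19699188), was 7564 CPM in control and 7986 CPM in motolimod Lyve1 Cd209 macrophages (1.06, 1.02 to 1.09). Cbr2 Tppp3 macrophages had 7374 and 6572 CPM (0.891). Those populations stood apart from all others, which held at most 2339 CPM in the control and 3890 CPM with motolimod. In classical monocytes Apoe was 570 CPM in the control and 2128 CPM with motolimod (3.73, 3.51 to 3.98), and in monocyte-macrophage cells 1657 and 3890 CPM (2.35, 2.26 to 2.43). In the same cells the Cbr2 Tppp3 markers summed to 205 and 686 CPM in classical monocytes and to 282 and 1200 CPM in monocyte-macrophage cells, and classical monocyte markers to 10318 and 8816 CPM in classical monocytes and 6844 and 7473 CPM in monocyte-macrophage cells. The Cbr2 Tppp3 population is among the highest in Apoe, Abca1 and, with motolimod, Cd36, and the part of this marker shift in the monocyte ratios of these genes was not tested. Cycling macrophages had 1776 and 1168 CPM (0.657, 0.639 to 0.676). That call was lost with mixed droplets kept, at 2-fold and among cells of 3000 to 10000 UMIs. The Cd72 Vcam1, Ass1 MHC class II and Mmp12 macrophages had ratios of 0.857, 0.845 and 0.779.

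The class-wide Apoe level was 2304 CPM in the control and 2949 CPM with motolimod, a ratio of 1.28. At the control library's mix of populations the ratio was 0.921, on the other side of 1. The Cbr2 Tppp3 macrophages, among the highest in Apoe, numbered 107 and 1278. The share of classical monocytes with an Apoe UMI, thinned to 1000 UMIs, was 25% in the control (20.4 to 30) and 54.8% with motolimod (49 to 60.5), and 48.2% and 81% unthinned. T cells had 5.04% and 6.98% thinned, and Apoe levels of 79.9 and 122 CPM.

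Apoc2, which activates lipoprotein lipase (19671579 to 19677941), had its highest level in monocytes. Classical monocytes had 132 CPM in the control and 263 CPM with motolimod (1.99, 1.72 to 2.3), and monocyte-macrophage cells 110 and 228 CPM (2.06). Lgals3 Hmox1 macrophages followed with 74.2 and 171 CPM (2.3), Mmp12 macrophages with 53.1 and 110 CPM (2.06) and Cbr2 Tppp3 macrophages with 60.6 and 115 CPM (1.89). The Lyve1 Cd209 (58.2 and 58.9 CPM), Cd72 Vcam1 (34.3 and 34.1 CPM) and cycling macrophages (32.7 and 30.8 CPM) had overlapping intervals between libraries. Class-wide it was 50.1 and 103 CPM (2.07, 1.97 to 2.16), against 3.46 and 8.89 CPM in T cells. The gene model Gm44805 shares 395 of the last 400 transcript bases at 100% identity and has no row in the count tables. The top populations of Apoe and Apoc2 were thus different ones in both libraries.

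Gpnmb encodes a glycoprotein of lysosomes that is a marker of lipid-loaded macrophages (chromosome 6, 49036546 to 49070929). In Lgals3 Hmox1 macrophages it was 123 CPM in the control (114 to 133) and 560 CPM with motolimod (534 to 587), a ratio of 4.55 (4.16 to 4.98). Mmp12 macrophages had 51.7 and 82.5 CPM (1.6), and every other population at most 18.7 CPM in the control and 62.4 CPM with motolimod. The thinned share of Lgals3 Hmox1 cells with a Gpnmb UMI was 9% (6.38 to 12.2) and 28.5% (24.6 to 32.7), and the unthinned share 36.6% and 48.8%. The gate used Lgals3, Hmox1, Trem2, Spp1 and other genes of the same set, and not Gpnmb.

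In Cbr2 Tppp3 macrophages Gpnmb was 12.6 and 59.1 CPM (4.68, 2.52 to 9.84), in monocyte-macrophage cells 18.7 and 62.4 CPM (3.34) and in Lyve1 Cd209 macrophages 5.74 and 33.2 CPM (5.77, 2.75 to 12.3), the last from 15 and 18 UMIs. Classical monocytes had 8.04 and 22.9 CPM (2.85) and Cd72 Vcam1 macrophages 6.18 and 17.2 CPM (2.79). The T cell level was 10.4 and 13.5 CPM. In CPM, the control levels of Lyve1 Cd209, Cd72 Vcam1 and Ass1 MHC class II macrophages (8.63 CPM) and of classical monocytes lay below it. Those of Cbr2 Tppp3 and cycling macrophages had intervals that overlapped it. Control Cd72 Vcam1, Ass1 MHC class II and cycling macrophages were deeper (median 16468, 14627 and 23054 UMIs) than T cells (5926). They held 72 Gpnmb UMIs in 684 cells, 122 in 895 and 182 in 741, and T cells 36 in 362. A lower CPM in these populations therefore does not show fewer UMIs per cell. With motolimod, the Ass1 MHC class II (12.9 CPM, a ratio just under 1.5), Cd72 Vcam1 and classical monocyte values overlapped the T cell level of that library. Cycling macrophages had 10.5 CPM in the control and 3.75 CPM with motolimod (0.357), both at or below the T cell level in CPM. Among cells of 3000 to 10000 UMIs the ratio was 1.05. By clusters built without lipid genes Gpnmb was higher in 3 of 6 populations, and the Cd72 Vcam1 ratio was 0.775 in place of 2.79. The Mmp12 call was lost by clusters, at 2-fold and with cells near a gate boundary left out. Class-wide, Gpnmb was 25.1 and 84 CPM (3.34, 3.15 to 3.55). Neutrophils held 54.1 and 81 CPM.

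Dendritic cells, the antigen-presenting cells, were few: 262 in the control and 123 in the motolimod library. Over all of them, 3 of the 10 genes were higher (background 14.7%) and 2 lower (6.15%), with 6 of the 10 past 10 CPM. Summed over all dendritic cells, Cd36 was lower, with 29.6 CPM in the control and 8.99 CPM with motolimod (0.303, 0.164 to 0.521). The direction of this sum was opposite to that of the monocyte and macrophage class, but the mix of dendritic cells also differed. The cDC1-like cells held 100 of the 114 Cd36 UMIs in the control and 12 of 15 with motolimod. They were 95 of 262 and 19 of 123 dendritic cells, and cDC2-like cells 93 and 77. The part of this mix in the sums and calls over all dendritic cells was not tested. In migratory dendritic cell-like cells it was 16.4 CPM (14 UMIs) in the control and 0 UMIs with motolimod. Cd36 in the cDC1-like cells (Xcr1, Clec9a) was 55 CPM in the control (100 UMIs in 95 cells) and 36.3 CPM with motolimod (12 UMIs in 19 cells), with a ratio interval of 0.329 to 1.2. In the control this overlapped the 51 CPM of Lgals3 Hmox1 macrophages, the highest macrophage value. The cDC2-like cells (Cd209a) held 0 Cd36 UMIs in the control and 3 with motolimod. Lpl in cDC2-like cells was 17.9 and 70 CPM (3.91, 2.39 to 6.68), Abcg1 24.7 and 77.3 CPM (3.13) and Apoe 40.9 and 144 CPM (3.51), from 93 and 77 cells. In the same cDC2-like cells classical monocyte markers summed to 1662 and 2543 CPM, macrophage markers to 707 and 947 CPM, Cbr2 Tppp3 markers to 46.9 and 257 CPM and neutrophil markers to 1093 and 446 CPM, and their part in these ratios was not tested. In CPM, Apoe there was near or below the T cell level of 79.9 and 122 CPM, although the cDC2-like cells were deeper (median 11355 and 12493 UMIs). Grouped by clusters, the Apoe ratio over all dendritic cells was 0.705 in place of 2.36.

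Migratory dendritic cell-like cells, with Ccr7 and Fscn1, held Fabp5 at 2767 CPM in the control (2657 to 2881) and 1643 CPM with motolimod (1484 to 1814), a ratio of 0.594, from 74 and 27 cells. That control level lies between those of the Lgals3 Hmox1 and Mmp12 macrophages. The cDC1-like cells held 62.7 and 72.5 CPM of Fabp5 and the cDC2-like cells 274 and 151 CPM. Abca1 was at most 8.18 CPM, and Apoc2 at most 10.2 CPM, in any dendritic population of either library.

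The genes of related lists were read over the whole class, where 8.75% of all genes were higher and 5.23% lower. Among the sterol synthesis genes, the enzymes that build cholesterol, 12 of 15 reached 10 CPM. Of those, 0 were higher and 6 lower, with a median log2 ratio of -0.55 against 0.04 for all genes. Fdps, which makes farnesyl pyrophosphate, was 117 CPM in the control and 49.9 CPM with motolimod (0.427, 0.405 to 0.45). Fdft1 (24.7 and 10.9 CPM), Sqle (14.4 and 7.46 CPM), Cyp51 (31 and 18.6 CPM), Msmo1 (36.2 and 22.7 CPM) and Idi1 (24.1 and 16 CPM), named after their values were seen, were the others. The direction was shared by the monocyte populations, with 10 of 11 lower in classical monocytes (9.36% of all genes there) and 10 of 11 in monocyte-macrophage cells (14.8% of all genes). Lyve1 Cd209 macrophages had 7 of 10 lower (14.4% of all genes) and Lgals3 Hmox1 macrophages 6 of 9 (9.69%). Mmp12 macrophages had 6 of 13 lower (4.86%), Cd72 Vcam1 macrophages 2 of 12 (3.99%) and Ass1 MHC class II macrophages 2 of 13 (2.12%). Cbr2 Tppp3 macrophages had 1 of 6 lower (13.4%). In cycling macrophages 1 of 13 was lower (2.54% of all genes) and the median log2 ratio was 0.01. Cycling macrophages also had the smallest Abca1 ratio of the 9 populations (1.67). In Cbr2 Tppp3, Cd72 Vcam1 and Ass1 MHC class II macrophages that ratio was 2.25, 2.22 and 2.32. A link between the sterol synthesis genes and Abca1 was not tested.

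Among LXR receptors and their other targets, 11 of 12 reached 10 CPM in the summed class, where 4 were higher and 0 lower (median log2 ratio 0.28). The 4, named after their values were seen, were Mylip, which marks the LDL receptor for degradation (17.2 and 40.3 CPM, 2.34-fold), Pltp, the phospholipid transfer protein (234 and 418 CPM, 1.79-fold), Rxra (13.3 and 21.6 CPM) and Smpdl3a (52.9 and 80.5 CPM). By population, Ass1 MHC class II and cycling macrophages had 0 of 11 higher (background 5.62% and 5.50%). Cd72 Vcam1 and Mmp12 macrophages had 1 of 11 (7.58% and 9%) and Cbr2 Tppp3 macrophages 2 of 11 (14.5%). Lyve1 Cd209 macrophages had 3 of 12 higher (18.1%) and 2 lower (14.4%). Lgals3 Hmox1 macrophages had 3 of 11 higher (16.9%) and 1 lower (9.69%), and monocyte-macrophage cells 3 of 12 (14.7%) and 1 lower (14.8%). Classical monocytes had 4 of 12 higher (12.3%). Of the PPAR receptors and targets, 9 of 12 reached 10 CPM, with 1 higher, Cpt1a (21.9 and 34.5 CPM), and 0 lower. Lysosomal cholesterol export and oxysterol genes had 8 of 10 past 10 CPM, 5 higher and 0 lower (median log2 ratio 0.61). They were Npc1 (33.7 and 53.4 CPM), Lipa, the lysosomal lipase (78.5 and 126 CPM), Abcc1 (19.9 and 35.3 CPM), Cyp27a1 (9.99 and 15.4 CPM) and Abca7 (12.2 and 18.6 CPM).

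Other uptake and receptor genes had 1 of 6 higher, Lrp1, the large LDL receptor-related protein (213 and 323 CPM, 1.52). Other droplet and ester synthesis genes had 1 of 8 higher, Soat1, which esterifies cholesterol for storage (66.2 and 113 CPM, 1.71). The list of droplet hydrolysis genes and their regulators had 3 of 6 higher: Nceh1 (42.3 and 64.4 CPM), Lipa and G0s2 (13.3 and 21.4 CPM). G0s2 encodes an inhibitor of the lipase made from Pnpla2, so its higher level does not count toward hydrolysis. Neutrophils held G0s2 at 3601 CPM over both libraries, and the part of free RNA in the macrophage values was not tested. Of the apolipoprotein and transfer protein genes, Pltp was the 1 higher of 2. None of these 4 lists had a lower gene. The single genes in this paragraph were named after their values were seen.

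The list of lipid-associated macrophage genes went both ways, with 2 of 13 higher and 4 lower. Ctsd, a lysosomal protease (602 and 1042 CPM), and Mitf, a regulator of lysosomal genes (23.2 and 39.1 CPM), were higher. Spp1, or osteopontin (270 and 165 CPM), Cd9 (136 and 77.5 CPM), Cd63 (566 and 359 CPM) and Atp6v0d2 (11.3 and 5.91 CPM) were lower. They too were named after their values were seen. Gpnmb and Cd36 were therefore higher in a class where genes of this list went both ways. The rest of the 13 passed in neither direction. The median log2 ratio of the list was 0.12, against 0.04 for all genes.

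**Figure D4:**
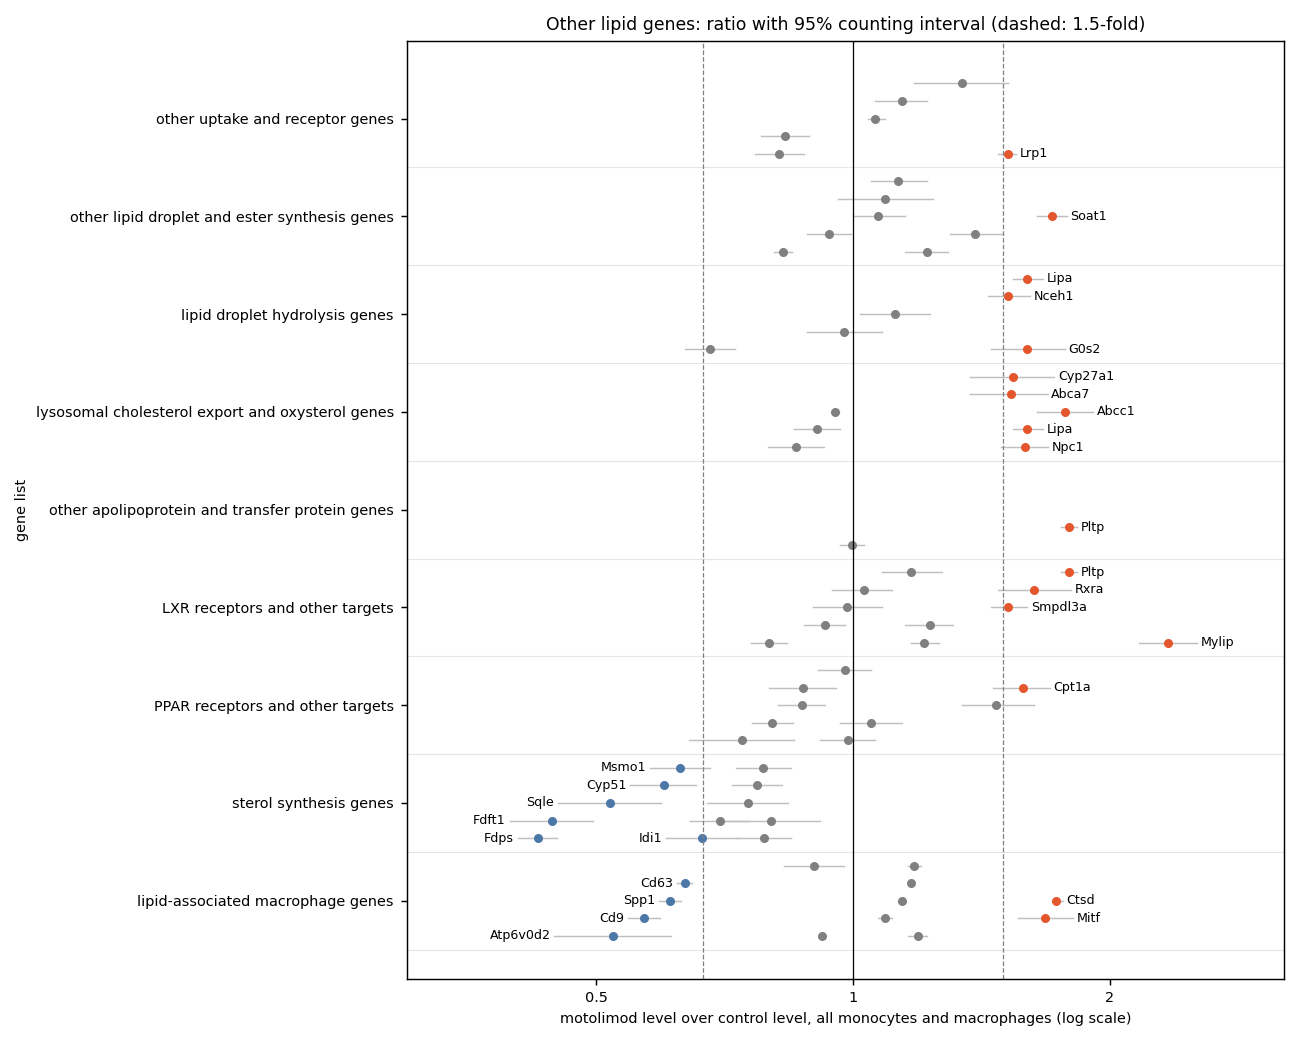
Motolimod level divided by control level, over all monocytes and macrophages, for each listed lipid gene with at least 10 CPM in 1 library (log scale). Points are genes, lines are 95% counting intervals and dashed lines mark 1.5-fold. Red and blue points are at least 1.5-fold higher and lower. The sterol synthesis row has 6 blue points and no red point.

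The genes most alike in pattern were named by Pearson correlation of log2(CPM + 10) over 28 sums of a population and library with at least 50 cells, among 5402 genes. These values describe the sums, which share libraries and depth. Lpl was most like Trem2 (r = 0.95) and Apoe most like Rgl1 (0.97) and Trem2 (0.96). Abca1 was most like Dhrs3 (0.96), Ptgr1 (0.94) and Pf4 (0.93), and Cd36 most like Mtmr10 (0.88), Lipa (0.81) and Ptgr1 (0.80). Plin2 was most like Cstb (0.96), Atp6v1a (0.94) and Fth1 (0.93), and Gpnmb most like Lhfpl2 (0.88). Fabp4 was most like Fabp5 (0.77), and Fabp5 most like Hcfc1r1 (0.87). Abcg1 was most like Vsir (0.93) and Apoc2 most like Tlr7 (0.92).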

How the data were processed

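Droplet 3′ RNA sequencing measured CD45-enriched tumour cells, 1 library per group. The authors deposited UMI counts without normalization. They were made with Cell Ranger on mm10, per the submitters' processing notes, which name version 5.0.1, while the file headers name 7.1.0. Whether intron reads were counted is not given in the sources used here. The 10 genes and all lists were chosen with earlier results of these data known.

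From these counts, Python 3.11.15 (numpy 2.4.6, scipy 1.17.1, pandas 2.3.3) computed marker UMIs per 10000 in each cell. Gates needed a macrophage score of 20 or a monocyte score of 40. The state whose log2 score lay furthest above the class mean, in standard deviations, named a cell. Gate thresholds were set after the marker scores were seen. Droplets with core genes of several lineages were removed as mixed (737 control and 1041 motolimod), 390 and 728 barcodes fitted no gate, and no doublet caller was run. UMIs were summed per population and library as CPM, with exact Poisson intervals, and ratios have exact conditional binomial intervals. Higher or lower means at least 1.5-fold with 10 CPM in 1 library. Thinning drew 1000 UMIs per cell with the seed 1. The intervals and the call rule were tested on simulated counts, where the rule called unchanged genes in the 2 smaller populations simulated (Cbr2 Tppp3 and Lyve1 Cd209) and none over the class, so calls of single low genes in small populations can come from counting error. Clusters for the alternative came from scanpy 1.11.5 and leidenalg 0.10.2 (21 clusters). From other lists, genes of at least 50 CPM and 2-fold were to be named, at most 4 per list, which Fdps alone met. Last 400 transcript bases were searched with BLAST 2.17.0 for near-identical copies. Positions are GENCODE M21 and promoters RefSeq.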

Additional observations from a re-analysis of the deposited data

Results flagged for a closer look

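Apoe and Gpnmb were each higher in at least 1 population and lower in another. The Apoe ratio was 3.73 in classical monocytes and 0.657 in cycling macrophages. The Gpnmb ratio was 5.77 in Lyve1 Cd209 macrophages and 0.357 in cycling macrophages, where both levels were at or below the T cell level in CPM. Among cells of 3000 to 10000 UMIs, neither gene was called lower in cycling macrophages. The differences between populations were not tested, since each rests on 1 library per group.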

How the results depend on the processing

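The 5 genes that were higher over the class stayed above 1.5-fold under each of the 9 alternatives that gave a class ratio. The ranges were 3.83 to 9.41 for Cd36, 2.29 to 3.9 for Abca1, 2.76 to 4.66 for Gpnmb, 1.61 to 2.27 for Apoc2 and 1.52 to 1.91 for Abcg1. The lower end of each of these 5 ranges was the ratio at the control library's mix of populations. The class-wide ratios of these genes thus hold the change in mix as well as changes of level. Fabp4 ranged from 0.517 to 0.649. Called at 2-fold, 0 genes were lower over the class and 2 pairs of gene and population were lower in place of 9. By clusters built without lipid genes, 23 pairs were higher, against 30 by gates in the same 6 populations and 44 in all 9. Lpl over the class ranged from 1.2 to 2.77. Of 847 ratios recomputed, 46 fell on the other side of 1. Of these, 41 were not called at first, such as Apoe over the class (1.28, and 0.921 at the control mix) and Apoc2 in Lyve1 Cd209 macrophages (0.412 when thinned), and 5 had been called. With clusters, Fabp5 in Cbr2 Tppp3 macrophages was 1.47, Gpnmb in Cd72 Vcam1 macrophages 0.775 and Apoe over dendritic cells 0.705. Among cells of 3000 to 10000 UMIs, Fabp5 in cycling macrophages was 1.11 and Gpnmb 1.05. The cause was not tested. Scaling by the median of ratios shifted the median gene by at most 0.06 (log2) in size. No paired analysis was possible because each group has 1 library. Median depths of 14369 and 6239 UMIs per cell limit low genes such as Fabp4 and Gpnmb.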
